A study of Mus musculus with 6 samples.

Results

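The Rnf genes are the mouse genes whose symbols begin with Rnf, for RING finger, followed by a number. They were taken from the deposited table of counts as every row whose symbol is Rnf, a number and at most 1 letter, with Rnf2 left out, which gives 77 genes of 24421 rows. The family was picked from these same libraries for its excess of falls in mutant cells, so its counts of falls and rises and its median change describe the members and test nothing. RNA had been sequenced from bone marrow LK cells, a gate of cells that lack lineage markers but carry the stem cell factor receptor c-Kit, and so a mixture of haematopoietic stem cells and committed progenitors. The groups were 3 wild type libraries and 3 ASXL1-MT-KI libraries, the second from littermates with mutant ASXL1 knocked in. ASXL1 is a chromatin regulator whose gene is often mutated in myeloid malignancies. All mice were C57BL/6 and 8 to 12 weeks old. The sources used here do not give how the knock-in is driven or whether a library was 1 animal, though the experiments are described as independent.

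A RING finger is a small zinc-binding fold that holds an E2 enzyme loaded with ubiquitin beside a substrate, so that most RING proteins act as E3 ubiquitin ligases. The chain that is built decides the outcome: some chains send a protein to the proteasome, others assemble signalling complexes or mark chromatin. The Rnf symbol is given for the fold and not for descent. The family therefore mixes RBR ligases, which pass ubiquitin through a cysteine of their own, ligases that act on chromatin and at DNA breaks, regulators of RNA sensing, of Wnt and of TGF-beta signalling, and ligases anchored in the membranes of endosomes and the endoplasmic reticulum. In blood progenitors such ligases are known to set the turnover of cytokine receptors, signalling proteins and chromatin marks.

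Of the 77 genes, 64 had enough counts to be tested and 13 did not. The untested rows were Rnf32, Rnf112, Rnf133, Rnf148, Rnf151, Rnf152, Rnf165, Rnf182, Rnf183, Rnf186, Rnf207, Rnf222 and Rnf224. None of these 13 exceeded 8 counts in any library, and Rnf112 and Rnf165 had 0 counts throughout. The 77 members are scattered over 19 chromosomes, with 11 members on chromosome 11 and 9 on chromosome 4.

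The libraries held 40462168 to 47579480 gene counts, and the biological coefficient of variation within a group was 8.78%. Asxl1 itself, the check of the labels, had 8077, 7793 and 6703 counts in the wild type libraries and 15525, 14763 and 12868 in those of ASXL1-MT-KI. Its log2 fold change was 0.91 (edgeR quasi-likelihood test, Benjamini-Hochberg adjusted p = 9.7e-06). Kit, the gene of the receptor that defines the gate, stood at 373 to 453 CPM. It is 1 of 6 listed progenitor genes, all abundant in every library. Of these Cd34 fell by 0.31 on the log2 scale and Myb rose by 0.20. Of 9 T and NK cell markers Cd3e, Cd3d, Cd3g and Cd8a had 0 to 9 counts and Cd4 had 45 to 95, whereas Nkg7 reached 144 to 190.1 CPM. None of the 3 that were tested passed, while with the replicate number as a block 1 fell and 1 rose. Over all tested genes 7.69% fell and 8.29% rose in the reported fit, and 13.8% and 16.7% with the block. Without the libraries numbered 3 the shares were 8.21% and 9.61%. Of all genes 8.63% fell in DESeq2 and 7.76% in limma-voom. Erythroid markers were higher in 9 of 9 tested genes, of which 1 passed the test, 7 with the replicate number as a block and 4 without the libraries numbered 3. Their summed level was 734 to 1270 CPM in wild type and 1050 to 1530 in ASXL1-MT-KI. Of 6 tested B cell markers 3 fell, with sums of 21.8 to 25.3 and 21.2 to 24.2 CPM. Most of each sum was Cd79b, at 16.2 to 18.9 and 19.0 to 21.1 CPM, which was higher by 0.21 on the log2 scale without passing. The median log2 fold change of the 6 was -1.16. The replicate block called 5 of them lower and 1 higher, and limma-voom called 5 lower. Leaving out wild type 1 kept 1 fall, beside 4.34% of all genes. Of 8 megakaryocyte markers 2 fell and 1 rose, with sums of 305 to 351 and 250 to 331 CPM. Of 7 mast and basophil markers none passed, while 3 fell with the block and 2 in DESeq2, and their sums were 160 to 217 and 111 to 213 CPM. Of 7 neutrophil markers none passed, while 4 rose with the block, at sums of 43 to 88 and 58.8 to 96.7 CPM. Of 9 monocyte markers Ccr2 fell and Ly6c2 rose, and with the block 2 fell and 2 rose. Their sums of 803 to 831 and 854 to 936 CPM did not overlap. Ly6c2 held the largest part, at 456 to 500 and 534 to 619 CPM. The part of these shifts in the Rnf values was not tested, and in bulk RNA fewer cells of a type and less RNA per cell cannot be told apart.

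Levels are given as RPKM, which is CPM scaled by edgeR's TMM factors and divided by the length of a gene's merged exons, so that genes can be set side by side. In wild type LK cells the tested Rnf genes ranged from 0.186 RPKM for Rnf223 to 124.9 RPKM for Rnf187, with a median of 8.65. At least 10 RPKM were reached by 30 genes, and 10 genes were under 1. Rnf187, a coactivator of the transcription factor JUN, stood highest. It was followed by Rnf130 at 110.3 RPKM, a relative of the fly membrane ligase Goliath. Their wild type ranges met at 119 RPKM, while both stood clear of every gene below them. Rnf126, which works with BAG6 on mislocalised membrane proteins, had 62.0 RPKM. Rnf19b, an RBR ligase first described in natural killer cells, had 56.5 RPKM. Rnf7, the RING subunit that serves cullin-5 ligases, had 51.4 RPKM. The wild type ranges of Rnf126 and Rnf19b overlapped, as did those of Rnf19b and Rnf7. Rnf187 and Rnf130, the most abundant members, did not pass the test, at log2 fold changes of -0.03 ± 0.0517 (SE) and -0.10 ± 0.0638.

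**Figure D1:**
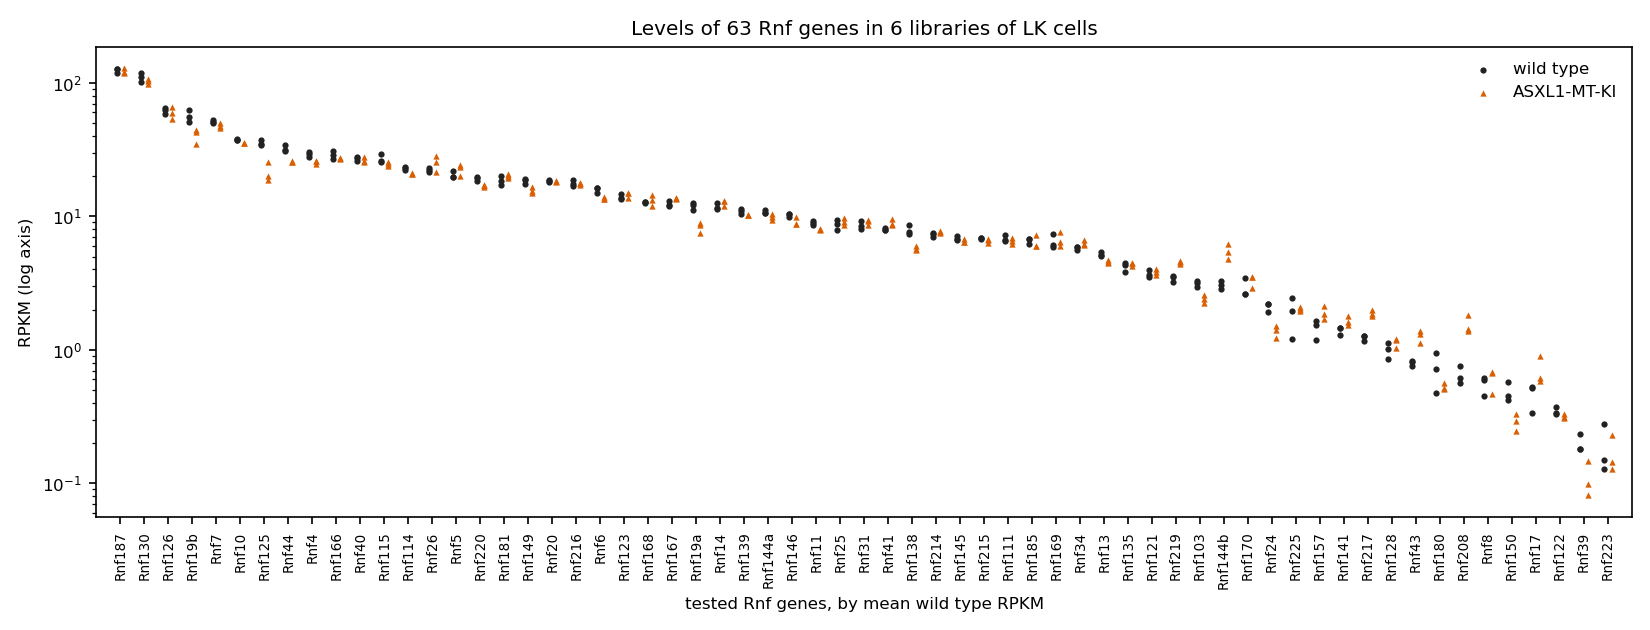
RPKM on a log axis of 63 of the 64 tested Rnf genes, ordered by the wild type mean, with a point for each library (circles wild type, triangles ASXL1-MT-KI, 3 each). Levels run from 0.186 to 124.9 RPKM in the wild type mean, and the order of the genes is nearly the same in both groups (Spearman's rho 0.991 across all 64 tested genes, a description).

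Between the groups, 13 of the 64 tested Rnf genes fell (20.3%), 5 rose (7.81%) and 46 did not pass the test. Over all 13548 tested genes 7.69% fell and 8.29% rose, 16% in either direction. Since the family was picked for this excess, nothing is read from the difference between those shares. The genes that fell had log2 fold changes of -0.73 to -0.18, and those that rose 0.40 to 1.26. Rnf208 alone changed by 2-fold or more. The median over the 64 genes was -0.0468 on the log2 scale beside 0.0009 for all tested genes, and the median size of change without its sign was 0.135 beside 0.132. With libraries scaled by total counts in place of TMM, 8 fell and 7 rose, beside 5.66% and 11.5% of all genes. The median log2 fold change of tested Rnf members was then 0.00513, and that of all genes shifted to 0.0527. The calls lost were those of Rnf4, Rnf6, Rnf13, Rnf149 and Rnf220. Without the libraries numbered 3, which had the fewest counts of each group, 9 fell and 6 rose, beside 8.21% and 9.61% of all genes, and Rnf4, Rnf13, Rnf149 and Rnf220 no longer passed.

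The summed level of the 64 tested members was 3883, 3841 and 3871 CPM in wild type and 3693, 3622 and 3609 CPM in mutant cells. The groups did not overlap. Scaled by total counts the sums were 3772, 3758 and 3857 against 3725, 3694 and 3700, again without overlap but closer together. Gene by gene, the CPM ranges of the groups did not overlap in 34 of 64 members (53.1%) beside 35.2% of all tested genes, and in all 18 that passed the test. The family was picked for falls in these libraries, so nothing is read from the lower sums or from that share. In the 18 genes the call itself favours ranges that do not overlap. At a CPM of at least 10 in wild type, 37 genes did not pass. Their log2 fold changes lay between -0.162 and 0.385 with standard errors of 0.0411 to 0.13.

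**Figure D2:**
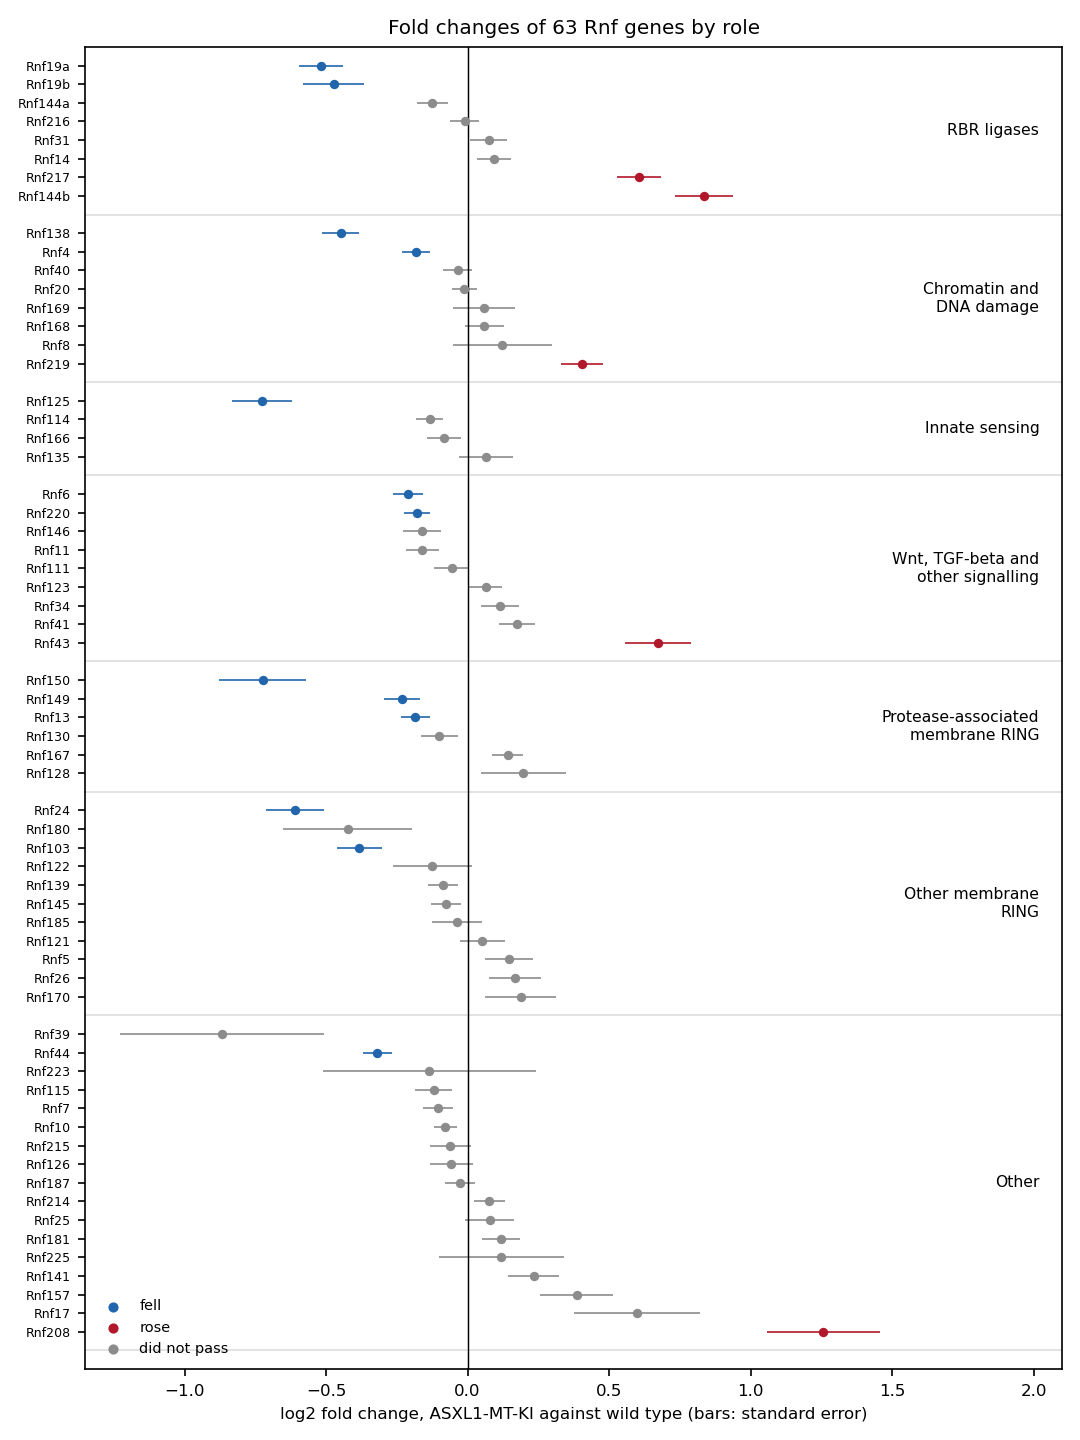
Log2 fold change of ASXL1-MT-KI against wild type for 63 of the 64 tested Rnf genes (points) with its standard error (bars), grouped by the known role of the protein and coloured by the outcome of the test. Among the RBR ligases 2 fell and 2 rose, and no protease-associated membrane ligase rose. Over all tested genes 7.69% fell and 8.29% rose, and in groups this small an absence of rises says little.

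Of the 13 genes that fell, 8 stood above the family's median level in wild type, and all 5 that rose stood below it. The median wild type level was 15.9 RPKM for the genes that fell, 1.24 RPKM for those that rose and 8.79 RPKM for the rest. The direction of calls varied with abundance over the whole table as well. With all tested genes split into 4 equal classes by abundance, 5.46%, 6.55%, 7.94% and 10.8% fell from the lowest class to the highest, and 10%, 14.8%, 6.47% and 1.89% rose. The Rnf genes numbered 7, 18, 25 and 14 in these classes. In the same order 0, 3, 6 and 4 of them fell, and 1, 4, 0 and 0 rose.

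Of the 8 RBR ligases 2 fell, 2 rose and 4 did not pass. Over all tested genes 7.69% fell and 8.29% rose. This role group and those below are too small to set against these shares. Rnf144b, a p53-inducible ligase at chr13:47122656-47247991 (GRCm38), had 14.2, 16.1 and 15.1 CPM in wild type replicates 1 to 3 and 26.6, 23.6 and 30.7 CPM in the mutant ones, the order kept for all genes below. Every mutant library stood above every wild type library, and Rnf144b rose by 0.84 ± 0.102 (SE) on the log2 scale (edgeR, Benjamini-Hochberg adjusted p = 0.000841). Rnf217, which marks the iron exporter ferroportin for degradation and lies at chr10:31493193-31609184, had 12.8, 14.1 and 14.0 CPM in wild type and 21.7, 19.8 and 20.6 CPM in mutant cells. It rose by 0.61 ± 0.0767 (edgeR adjusted p = 0.00103). The 2 genes are weakly expressed, at 3.06 and 1.24 RPKM in wild type, and both kept their call in each alternative tried.

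Rnf19a, known as Dorfin from protein inclusions in neurons, and its relative Rnf19b, known as NKLAM from cytolytic lymphocytes and macrophages, both fell. Rnf19a at chr15:36239933-36283147 had 55.6, 53.5 and 49.5 CPM in wild type and 39.3, 38.4 and 33.1 CPM in ASXL1-MT-KI, a change of -0.52 ± 0.0774 (edgeR adjusted p = 0.00235). Rnf19b at chr4:129058271-129085886 had 180.9, 159 and 147 CPM in wild type and 128, 123 and 99.8 CPM in mutant cells, a change of -0.47 ± 0.107 (edgeR adjusted p = 0.0211). In both genes, and in both groups, the library numbered 3 was the lowest, and the groups did not overlap. The call of Rnf19b was lost without wild type replicate 1 or wild type replicate 2 (edgeR adjusted p up to 0.0682), and that of Rnf19a was kept throughout.

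The other RBR ligases did not pass. Rnf144a, the nearest relative of Rnf144b, had a log2 fold change of -0.12 ± 0.0545 and an edgeR adjusted p of 0.159, with 79.1 ± 2.05 CPM in wild type and 72.6 ± 3.78 CPM in ASXL1-MT-KI (SD, n = 3). With the replicate number as a block it passed, at an adjusted p of 0.044. Rnf31, the HOIP subunit that builds linear ubiquitin chains on NF-kB signalling complexes, had 49.5 ± 3.39 and 52.1 ± 2.49 CPM. Rnf14, which acts on stalled ribosomes, and Rnf216, also called Triad3, changed by 0.09 and -0.01 on the log2 scale, with standard errors of 0.0593 and 0.0521.

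**Figure D3:**
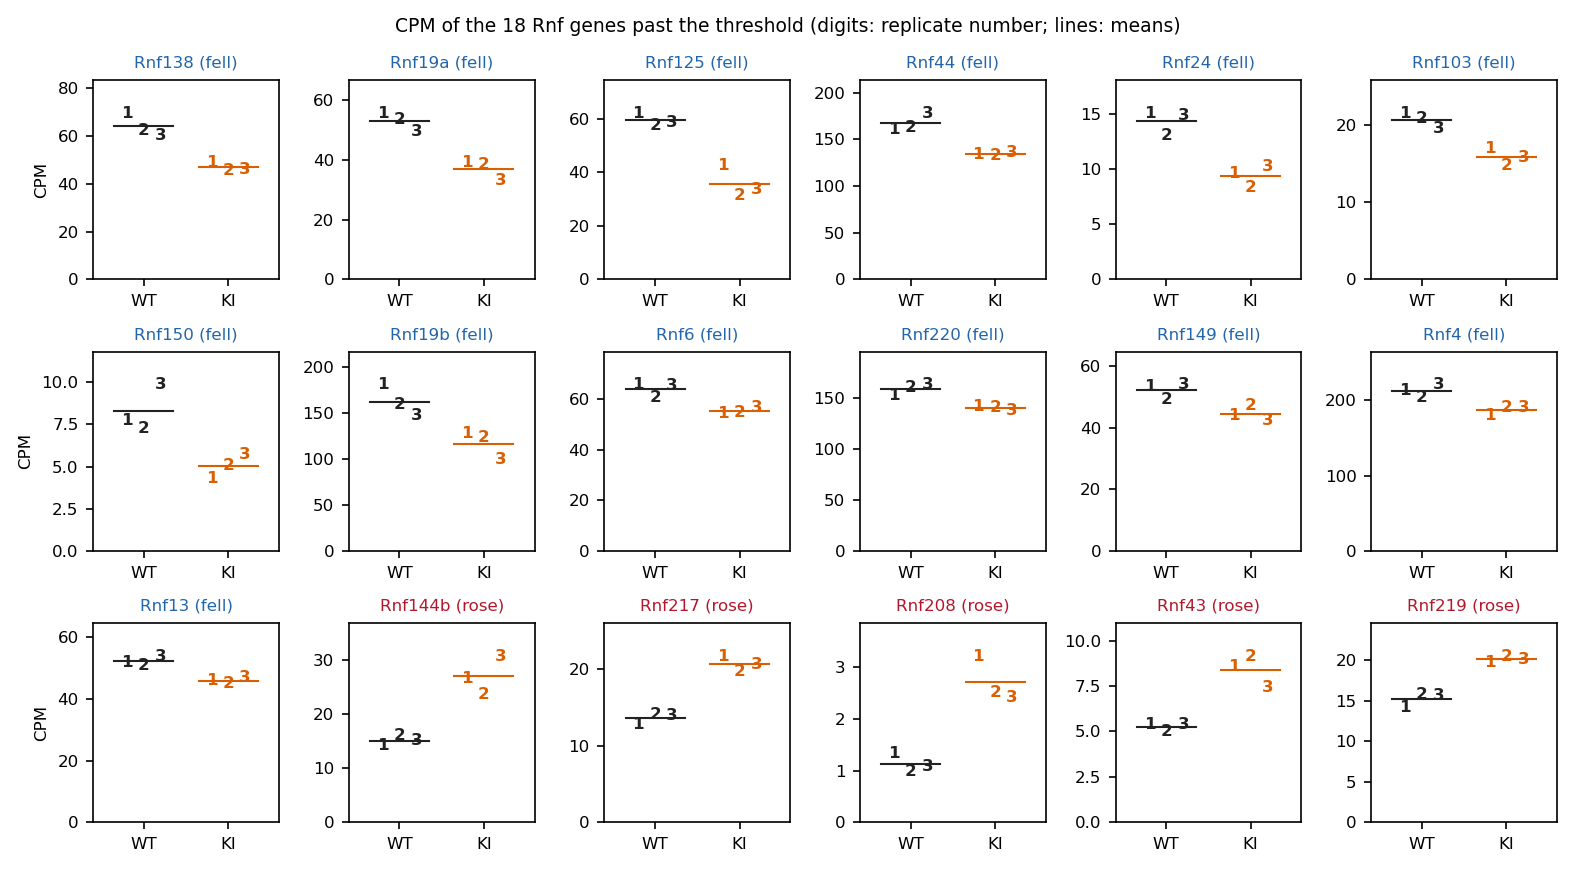
CPM of the 18 Rnf genes that passed the test, a panel a gene with its own axis from 0, with each library drawn as its replicate number and the group mean as a line (3 wild type, 3 ASXL1-MT-KI). In none of the 18 panels do the groups overlap, which the call itself favours, and the shifts of Rnf6, Rnf220, Rnf149, Rnf4 and Rnf13 are small beside their levels.

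To show the DNA in front of genes that moved, the 150 bases upstream of the RefSeq start are printed for 3 genes that fell and 1 that rose. They come from RefSeq on GRCm38.p6, each reads 5′ to 3′ on the gene's own strand, and none of the 4 windows holds an annotated exon. For Rnf19b and Rnf217 the bases just after the RefSeq start were not found in a GENCODE transcript of the gene, so those starts rest on RefSeq alone. Capitals mark matches on either strand to the letters of the GC box (GGGCGG) or the TATA box (TATAAA). The windows are those of Rnf19b at chr4:129057994-129058143 on the plus strand, Rnf24 at chr2:131352893-131353042 on the minus strand, Rnf103 at chr6:71493727-71493876 on the plus strand and Rnf217 at chr10:31609726-31609875 on the minus strand.
Rnf19b: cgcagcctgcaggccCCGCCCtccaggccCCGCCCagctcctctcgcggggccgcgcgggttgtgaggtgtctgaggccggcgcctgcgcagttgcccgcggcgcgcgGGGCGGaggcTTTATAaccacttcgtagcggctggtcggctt
Rnf24: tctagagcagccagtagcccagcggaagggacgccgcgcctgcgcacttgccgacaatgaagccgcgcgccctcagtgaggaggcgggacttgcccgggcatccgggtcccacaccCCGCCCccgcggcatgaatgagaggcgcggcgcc
Rnf103: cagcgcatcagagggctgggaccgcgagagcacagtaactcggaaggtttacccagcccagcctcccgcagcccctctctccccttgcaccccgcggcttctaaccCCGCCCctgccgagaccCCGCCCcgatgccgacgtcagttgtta
Rnf217: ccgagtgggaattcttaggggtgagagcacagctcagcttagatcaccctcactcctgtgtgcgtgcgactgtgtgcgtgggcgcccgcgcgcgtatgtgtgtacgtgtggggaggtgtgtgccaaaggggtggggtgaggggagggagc
Rnf19b carried 4 matches, Rnf103 carried 2 and Rnf24 carried 1, while none was found in the Rnf217 window. The 4 windows are examples and show no contrast between falls and rises. The windows of Rnf220 and Rnf13, which fell, also hold no annotated exon and were not printed. That of Rnf220 held neither box, at a GC content of 46%, and that of Rnf13 held a GC box.

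RefSeq start windows, which run from before to just after a gene's start, were at hand for 50 of the 64 tested genes. Each was searched on both strands for the GC box GGGCGG, the TATA box TATAAA, the CCAAT box, the ETS core CCGGAAG, the E-box CACGTG, the CRE letters TGACGTCA and the AP-1 letters TGANTCA. The GC box was found in 39 of 50 Rnf genes (78%) beside 38.2% of all 27025 genes with a window. Those 27025 were not limited to the 13548 genes tested in LK cells, as the 50 were. They are therefore no matched background, for this or the shares and base contents below, and differences from them cannot be credited to the Rnf family. It was found in 8 of 9 that fell, 1 of 4 that rose and 30 of 37 that did not pass (81.1%), shares that were not tested against each other. CCGGAAG was found in 11 of 50 (22%) beside 9.93%, and CCAAT in 22 of 50 (44%) beside 41.1%. The windows of tested Rnf genes had a median GC content of 60.7% beside 52.7%, and their CpG content was 0.805 of the number expected from base composition beside 0.384. These letters were chosen after values were seen, and a match is a description and not a binding site.

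Among the 8 ligases of chromatin and DNA damage 2 fell, 1 rose and 5 did not pass. Rnf138, which promotes the resection of DNA breaks, had 69.5, 62.3 and 60.3 CPM in wild type and 49.1, 45.7 and 46.0 CPM in ASXL1-MT-KI. All 3 mutant values were below the lowest wild type value, a change of -0.45 ± 0.066 (edgeR adjusted p = 0.00219). Rnf4, a ligase that recognises SUMO-modified proteins such as PML, had 212 ± 8.71 CPM in wild type and 187 ± 6.19 CPM in mutant cells (SD, n = 3) and fell by 0.18 on the log2 scale (edgeR adjusted p = 0.0358). Its call was lost without any 1 of 5 libraries, all but wild type replicate 2, with an edgeR adjusted p of up to 0.123. Rnf219, a ligase of the origin recognition complex at chr14:104477536-104522645, had 14.2, 15.7 and 15.6 CPM in wild type and 19.6, 20.5 and 20.1 CPM in mutant cells. It rose by 0.40 ± 0.0731 (edgeR adjusted p = 0.00596).

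The ligases that write ubiquitin on histones showed no change past the threshold. Rnf20 and Rnf40, which together ubiquitylate histone H2B, had log2 fold changes of -0.01 ± 0.0441 and -0.04 ± 0.0524, at 134 and 152 CPM in wild type. Rnf8 and Rnf168, which act in sequence on chromatin around DNA breaks, had 0.12 ± 0.175 and 0.06 ± 0.0681. Rnf169, which reads the mark of Rnf168, had 0.06 ± 0.11. For Rnf8, at 6.49 CPM, the standard error leaves room for changes as large as those of Rnf219, whereas Rnf20 and Rnf40 were measured more tightly.

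Partners of these enzymes were counted from lists drawn up for this description with earlier results of these data known. Nothing is therefore read from the difference between their shares and those of all genes, here or for the lists below. Of 19 partners at DNA breaks none passed in edgeR, DESeq2 or limma-voom, and at an unadjusted p under 0.05 edgeR gave 4 lower and 2 higher. With the replicate number as a block 3 of them fell and 1 rose, beside 13.8% and 16.7% of all genes. Of 12 partners of H2B ubiquitin 5 fell and 1 rose (41.7% and 8.33%, beside 7.69% and 8.29% of all genes). Usp22, the deubiquitinase of the SAGA complex that removes the H2B mark, fell by 0.40 on the log2 scale. Wac, which brings Rnf20 and Rnf40 to RNA polymerase II, fell by 0.30, and the H3K79 methyltransferase Dot1l fell by 0.23. Within the PAF1 complex, the subunit Ctr9 rose by 0.22 and Paf1 fell by 0.22. The falls of this list numbered 3 without wild type 1, ASXL1-MT-KI 1 or ASXL1-MT-KI 2, beside 4.34%, 5.23% and 4.26% of all genes. The rise was lost without ASXL1-MT-KI 2.

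Of the 4 ligases known from innate sensing, which are close relatives except for Rnf135, 1 fell and 3 did not pass. Rnf125, which ubiquitylates the RNA sensor RIG-I for degradation, had 62.1, 57.5 and 58.6 CPM in wild type and 42.6, 31.4 and 33.4 CPM in ASXL1-MT-KI. The change of -0.73 ± 0.106 was the steepest fall of the family, with that of Rnf150 next to it (edgeR adjusted p = 0.00264). Mutant replicate 1 was the highest of its group and still below every wild type value. Rnf114 had 75.1, 79.3 and 77.0 CPM against 70.3, 70.1 and 70.5 CPM. Its groups did not overlap, yet its change of -0.13 ± 0.047 gave an edgeR adjusted p of 0.0846, and it passed only with the replicate number as a block (0.0321). Rnf166 had a log2 fold change of -0.08 ± 0.0597 and Rnf135, called Riplet, which activates RIG-I, had 0.07 ± 0.0948. No ligase of this group rose in any edgeR fit run, in DESeq2 or in limma-voom, and none was higher at an unadjusted p under 0.05 in the reported edgeR fit. With 4 genes, and 8.29% of all genes rising in the reported fit, that says little about the group.

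Of 14 other genes of RNA and DNA sensing 4 fell in the reported edgeR fit (28.6%, beside 7.69% of all genes), in DESeq2 and in limma-voom. None rose in these fits, with 1 higher at an unadjusted edgeR p under 0.05. In edgeR 1 rose with the replicate block, under total counts, without wild type 2 and without the libraries numbered 3. In the same order 16.7%, 11.5%, 6.57% and 9.61% of all genes rose. The falls numbered 2 without wild type 1, wild type 2 or ASXL1-MT-KI 3, beside 4.34%, 6.69% and 6.43% of all genes. Trim25, the ligase that switches RIG-I on, fell by 0.39 on the log2 scale. Zc3hav1, an antiviral RNA-binding protein, fell by 0.28, and the interferon regulator Irf7 fell by 0.71. Of 16 genes around linear ubiquitin and NF-kB 5 fell in edgeR (31.2%, beside 7.69% of all genes), 6 in DESeq2 and 5 in limma-voom. None rose in these fits, and none was higher at an unadjusted edgeR p under 0.05. The falls numbered 2 without wild type 1 and 3 without ASXL1-MT-KI 2, beside 4.34% and 4.26% of all genes. They were led by the receptor-associated ligases Birc3 (-0.99) and Birc2 (-0.35) and by Spata2 (-0.28), which links the linear ubiquitin complex to the deubiquitinase CYLD.

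Of the 9 tested ligases of Wnt, TGF-beta and other signalling 2 fell, 1 rose and 6 did not pass. Rnf43, which removes Frizzled receptors from the cell surface and is itself a target of Wnt signalling, lies at chr11:87662722-87735539. It had 5.36, 4.99 and 5.40 CPM in wild type and 8.56, 9.14 and 7.40 CPM in ASXL1-MT-KI. The lowest mutant value was above every wild type value, and the gene rose by 0.67 ± 0.116 (edgeR adjusted p = 0.0046). Rnf6, which acts on the androgen receptor and is the nearest relative of Rlim, had 65.6, 60.5 and 65.3 CPM in wild type and 54.4, 54.7 and 56.4 CPM in mutant cells, a change of -0.21 ± 0.0535 (edgeR adjusted p = 0.0277). Rnf220, a ligase linked to the stability of beta-catenin, had 152, 159.9 and 163 CPM against 141, 140.5 and 138 CPM, a change of -0.18 ± 0.0468 (edgeR adjusted p = 0.0303).

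The calls of Rnf6 and Rnf220 were narrow. Rnf6 no longer passed without any 1 of 4 libraries (wild type 1, wild type 3, ASXL1-MT-KI 1, ASXL1-MT-KI 2), and Rnf220 without any library but wild type replicate 1, with edgeR adjusted p values of up to 0.106 and 0.0982. Under total counts neither passed. Rnf146, which destroys axin marked with poly-ADP-ribose, had a log2 fold change of -0.16 ± 0.0673. Rnf11 had -0.16 ± 0.0573, and Rnf41, which limits the receptor ErbB3, had 0.17 ± 0.0638. With the replicate number as a block these 3 passed, at edgeR adjusted p values of 0.0351, 0.043 and 0.0391. Rnf111, called Arkadia, which degrades the TGF-beta inhibitors SnoN and SMAD7, had -0.06 ± 0.0613. The RNAs of those inhibitors did change, since Skil, the gene of SnoN, fell by 1.61 and Smad7 fell by 0.99 on the log2 scale. They belong to a list of 16 tested genes of TGF-beta and Wnt signalling, of which 4 fell and 1 rose. These are 25% and 6.25%, beside 7.69% and 8.29% of all genes. The falls numbered 2 without wild type 1, ASXL1-MT-KI 1 or ASXL1-MT-KI 2 and under total counts, and 7 with the replicate block. In the same order 4.34%, 5.23%, 4.26%, 5.66% and 13.8% of all genes fell. Axin1, a scaffold that restrains Wnt signalling, fell by 0.20. The gene that rose was Axin2, a target and inhibitor of Wnt signalling like Rnf43, with 1.07, 1.11 and 1.53 CPM in wild type and 2.04, 2.46 and 2.44 CPM in ASXL1-MT-KI. Its rise was lost without wild type 1 and without ASXL1-MT-KI 2.

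Of 6 tested membrane ligases with a protease-associated domain, which sit in endosomes and lysosomes, 3 fell and 3 did not pass. Rnf150 at chr8:82863356-83091268 had 7.71, 7.28 and 9.86 CPM in wild type and 4.27, 5.09 and 5.69 CPM in ASXL1-MT-KI. It was at 0.48 RPKM in wild type, the lowest level among the members that passed, and fell by 0.72 ± 0.153 (edgeR adjusted p = 0.0124). Rnf149 had 52.3 ± 2.53 and 44.5 ± 2.46 CPM (SD, n = 3), a change of -0.23 (edgeR adjusted p = 0.0354). Rnf13 had 52.1 ± 1.58 and 45.8 ± 0.954 CPM, a change of -0.18 (edgeR adjusted p = 0.0417). Rnf149 shares 24.9% of its exon bases with another annotated gene, Gm15832, and the library kit does not mark strand, so part of its reads could belong to that gene.

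Both of those smaller calls were also narrow. Rnf13 lost its call without any 1 of the 6 libraries (edgeR adjusted p up to 0.151), and Rnf149 when any 1 of wild type 1, wild type 3, ASXL1-MT-KI 1 and ASXL1-MT-KI 3 was left out (up to 0.123). Rnf167, the nearest relative of Rnf13, had a log2 fold change of 0.14 ± 0.0543 and did not pass, with 43.9 ± 1.76 and 48.4 ± 0.322 CPM. It did pass with the replicate number as a block (edgeR adjusted p = 0.0495) and under total counts. Rnf128, known as GRAIL from unresponsive T cells, was at 3.46 CPM in wild type and 3.97 in mutant cells. Apart from those fits of Rnf167, which was also higher at an unadjusted edgeR p under 0.05, no gene of this group rose in the other fits run, DESeq2 and limma-voom included. With 6 genes, and 8.29% of all genes rising in the reported fit, that says little about the group.

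Of 11 other tested membrane ligases, most of them in the endoplasmic reticulum, 2 fell and 9 did not pass. Rnf24 at chr2:131298064-131352892 had 15.1, 13.1 and 14.9 CPM in wild type and 9.65, 8.38 and 10.2 CPM in ASXL1-MT-KI, a change of -0.61 ± 0.102 (edgeR adjusted p = 0.00419). It shares 17.7% of its exon bases with Pank2 and Gm14233. Rnf103 at chr6:71493894-71510881 had 21.5, 20.8 and 19.5 CPM in wild type and 16.9, 14.7 and 15.8 CPM in mutant cells, a change of -0.38 ± 0.0793 (edgeR adjusted p = 0.0114). Mutant values of both genes lay below all wild type values. Leaving out either wild type 1 or ASXL1-MT-KI 2 ended the call of Rnf103 (edgeR adjusted p up to 0.0554). No gene of this group rose in the reported edgeR fit, in DESeq2 or in limma-voom, and none was higher at an unadjusted p under 0.05 in that edgeR fit. With 11 genes, and 8.29% of all genes rising in the reported fit, that says little about the group. Rnf26, an endosome-organising ligase of the endoplasmic reticulum with a log2 fold change of 0.17 ± 0.0918, passed at 0.24 without the libraries numbered 3 (edgeR adjusted p = 0.023) and without ASXL1-MT-KI 3 alone, and Rnf170 passed without wild type 3, at 0.33.

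In the reported fit the membrane ligases with the best known substrates did not pass. Rnf139 and Rnf145, which take part in sterol-driven protein turnover, had log2 fold changes of -0.09 ± 0.053 and -0.08 ± 0.0539. Rnf5 and Rnf185, a related pair of degradation at the endoplasmic reticulum, had 0.15 ± 0.0834 and -0.04 ± 0.0887. Rnf170, which degrades activated IP3 receptors, had 0.19 ± 0.124. Of 19 partners in degradation at the endoplasmic reticulum 3 fell in the reported edgeR fit (15.8%, beside 7.69% of all genes), DESeq2 and limma-voom. None rose in these fits, with 2 higher at an unadjusted edgeR p under 0.05. With the replicate block, and without wild type 2, 1 rose, beside 16.7% and 6.57% of all genes. Among those that fell were Insig1 (-0.33), the sterol sensor that Rnf139 and Rnf145 work with, and Herpud1 (-0.36), a membrane protein induced by unfolded proteins.

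The last 18 tested genes have other or less known roles, and 1 fell, 1 rose and 16 did not pass. Rnf44 at chr13:54679399-54693907 had 161, 163 and 178 CPM in wild type and 134, 133 and 136 CPM in ASXL1-MT-KI. The mutant libraries were nearly equal, and the change was -0.32 ± 0.0522 (edgeR adjusted p = 0.00364). Rnf208 at chr2:25242255-25244262 had 1.33, 0.98 and 1.08 CPM in wild type and 3.21, 2.50 and 2.41 CPM in mutant cells. Its rise of 1.26 ± 0.198 had the highest fold of the family, from the lowest CPM among the members that passed (edgeR adjusted p = 0.00305), and 9.09% of its exon bases are shared with Cysrt1. Nearest to the threshold on the outside was Rnf157, with 15.6, 11.4 and 14.7 CPM against 16.2, 20.4 and 17.8 CPM, a change of 0.39 ± 0.13 and an edgeR adjusted p of 0.0777. Wild type replicate 2 was the lowest of the 6 libraries there. DESeq2 called it higher. Rnf114 was next outside, and Rnf13 and Rnf4 stood just inside.

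Abundant genes of this group were measured closely and did not pass. Rnf10 had 283 ± 2.46 CPM in wild type and 268 ± 2.05 CPM in mutant cells (SD, n = 3), a log2 fold change of -0.08 ± 0.0411. Rnf7 had -0.11 ± 0.0528, Rnf126 had -0.06 ± 0.0769 and Rnf115, its nearest relative, had -0.12 ± 0.0649. Among the genes of this group that did not pass, the weakest by CPM were measured poorly. Rnf39 had -0.87 ± 0.36 at 0.358 CPM in wild type, Rnf17, a germline Tudor protein, had 0.60 ± 0.222 at 2.86 CPM, and Rnf223 had -0.14 ± 0.377 at 0.54 CPM.

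**Figure D4:**
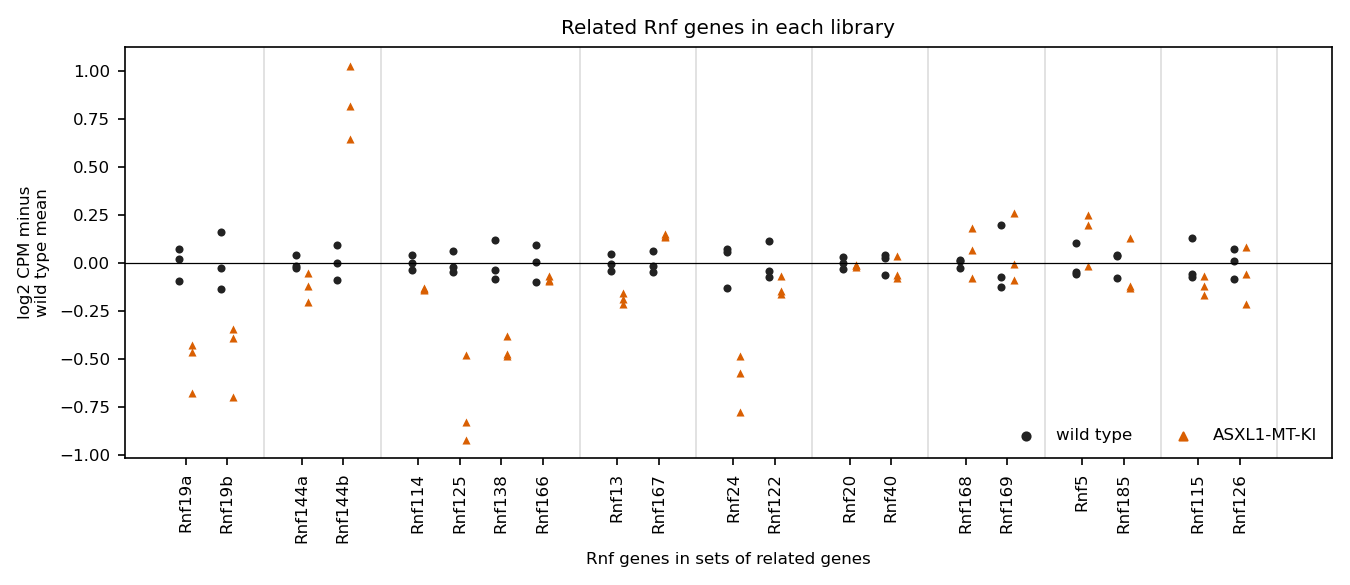
Log2 CPM of each library minus the wild type mean for 20 Rnf genes in sets of close relatives, set apart by grey lines (circles wild type, triangles ASXL1-MT-KI, 3 each). Rnf19a and Rnf19b lie below 0 together in all mutant libraries, whereas Rnf144a and Rnf144b, and Rnf13 and Rnf167, lie on opposite sides.

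Relatives did not move alike in every set. Rnf19a and Rnf19b both fell, by similar amounts. Rnf144b rose while Rnf144a lay lower without passing. Rnf24 fell, and its relative Rnf122, at 3.12 CPM in wild type, had -0.12 ± 0.138. In the set of Rnf114, Rnf125, Rnf138 and Rnf166 all 4 were lower, and Rnf125 and Rnf138 passed. Differences between relatives in their change were not tested.

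Beyond the Rnf genes, the ubiquitin system was counted from lists of the same kind, also drawn up with earlier results known. Over all tested genes 7.69% fell and 8.29% rose. Among 49 other RING ligases without the Rnf symbol 9 fell and 1 rose (18.4% and 2.04%). They included Birc3, Neurl3 (-1.46) and Arih2 (-0.45), an RBR ligase that works with cullin-5, and Rlim, the relative of Rnf6, fell by 0.41. The 45 tested Trim ligases went 3 down and 6 up (6.67% and 13.3%), with Trim36 (-1.16) and Trim13 (-0.46) beside Trim25 on the one side and Trim2 (1.15) and Trim47 (0.52) on the other. Of 8 March ligases March7 fell and March8 rose. Of 23 HECT ligases 2 fell and 1 rose: Nedd4 (-0.44), which acts on membrane receptors, Smurf2 (-0.20), which acts on TGF-beta signalling, and Arel1 (0.29).

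Enzymes before and after the ligases were called at rates of a few per list, where 7.69% of all tested genes fell and 8.29% rose. Of 34 E1 and E2 enzymes 3 fell and 2 rose, among them Ube2e3 (-0.32), Ube2g1 (-0.23) and Ube2e2 (1.05). Of 16 core subunits of cullin ligases Cul3 fell and Cul4a rose. Of 44 Usp deubiquitinases 5 fell and 3 rose (11.4% and 6.82%), with Usp11 (-0.32) and Usp36 (-0.25) beside Usp22. Of 25 deubiquitinases of the OTU and other families Zranb1 fell and Otub2 rose. Birc2, Birc3, Usp22, Trim25, Smurf2 and Ube2b stand in more than 1 list. Over the other fits, scalings, filters and left-out libraries, with no minimum fold, the falls ranged from 6 to 14 for the other RING ligases and from 3 to 9 for the Trim and for the Usp genes, and the rises from 0 to 4, from 2 to 11 and from 0 to 6. The highest count of falls in each of these lists came with the replicate block. Over the same settings 4.26% to 13.8% of all genes fell and 3.91% to 16.7% rose, with the highest of both in the block. Without wild type 1 none of the E1 and E2 enzymes, cullin subunits or OTU and other deubiquitinases fell in edgeR, with 5, 2 and 2 lower at an unadjusted p under 0.05. Of all genes 4.34% fell in that fit.

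**Figure D5:**
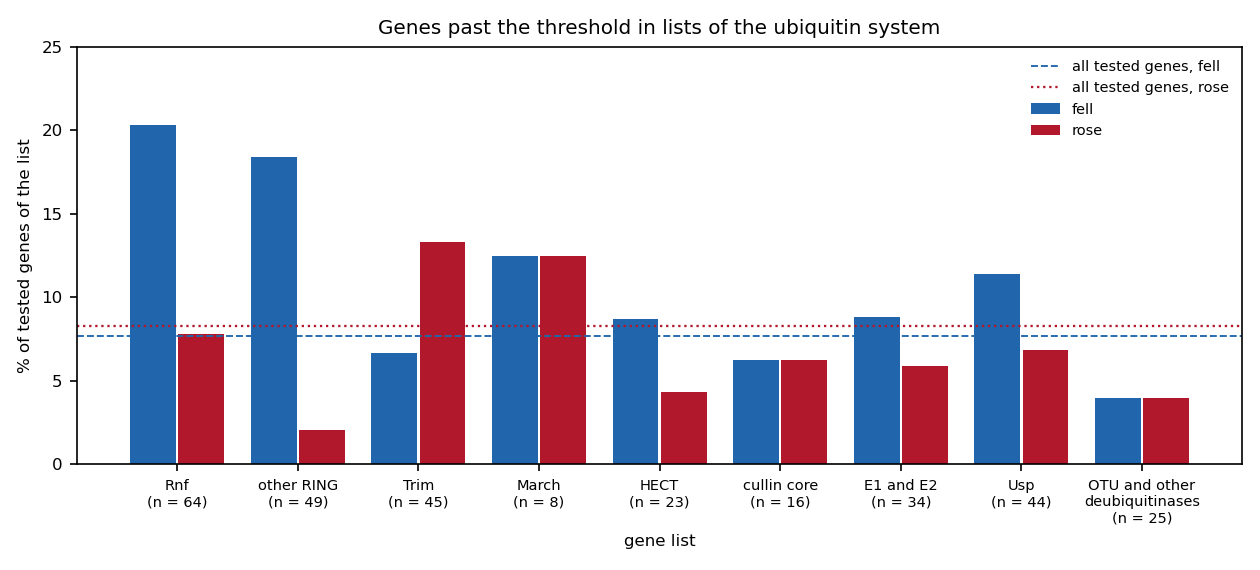
Percent of the tested genes of each list that fell or rose (bars, from 0; number of tested genes under each name), with the percent of all 13548 tested genes as lines (7.69% fell, 8.29% rose). The Rnf genes stand at 20.3% and 7.81% and the other RING ligases at 18.4% and 2.04%. The Rnf list was picked for its excess of falls, and the other lists were drawn up with earlier results of these data known.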

How the data were processed

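The values are raw counts by gene symbol, deposited by the authors as 1 table with a column for each of the 6 libraries. Per the labels' protocols, 200 ng of RNA went into an NEBNext Ultra kit, read as paired ends of 124 bp. HISAT2 2.0.4 and mm10 appear in the submitters' processing notes; the sources used here do not give the counting tool or annotation. ASXL1-MT-KI was compared with wild type in edgeR 4.0.16 (R 4.3.3): filterByExpr with a minimum of 10 counts, TMM scaling, a robust quasi-likelihood F test on all genes and Benjamini-Hochberg adjustment at 0.05. CPM are TMM-scaled, and the SE is the estimate over the square root of F. RPKM and coordinates use GENCODE M21 exons on GRCm38, the assembly of mm10, where all 77 symbols matched. The members, lists and roles were chosen with earlier results of these data known. Every Rnf gene past the threshold was named, with values by library for the 10 lowest p of those that fell and all 5 that rose, and up to 3 genes by p from other lists. Same-numbered libraries deviated together (r = 0.253, 0.162 and 0.391 across genes, which are not independent), all above 0.1. Wild type 2 and ASXL1-MT-KI 1 gave 0.163, so these values do not set the number 2 libraries apart as a pair. The reported fit used no block, and its p values, standard errors and calls ignore any pairing. A block on the replicate number was run as an alternative. Alternatives used DESeq2 1.42.0 and limma 3.58.1. The pipeline was tested on simulated data. Values of 1 tested Rnf gene and of 1 listed partner gene are not reported here, though both are in the counts. Figures were drawn with matplotlib.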

Additional observations from a re-analysis of the deposited data

How the results depend on the processing

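The number of Rnf members that fell, 13 as reported, was 8 under total counts, 3 with a fold of at least 1.5 required (2.83% of all genes), 9 without the libraries numbered 3 of both groups, and 7 to 11 when 1 library was left out (4.26% to 7.61% of all genes), lowest without wild type replicate 1 (4.34%). Without wild type replicate 3, ASXL1-MT-KI replicate 1 or ASXL1-MT-KI replicate 2 it was 8, and fewer genes then passed over the whole table in all but the first of these. Those that rose stayed between 4 and 7. The median log2 fold change of tested Rnf members was 0.00513 under total counts, -0.0298 without the libraries numbered 3, and -0.0483 to -0.036 with 1 library left out; the cause was not tested. With the replicate block 18 fell and 7 rose, at a median of -0.0485, beside 13.8% and 16.7% of all genes; all 18 calls were kept, 7 were added, and the block changed no other call. DESeq2, DESeq2 size factors, limma-voom and both filters gave 12 or 13 that fell and 5 or 6 that rose. Of the 18 calls 11 were kept in every fit with 1 library left out. Low counts limit Rnf39, Rnf223 and the 13 untested genes.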
